A study of Mus musculus with 21 samples.

Results

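The genes of the proteasome, the protease complex that degrades ubiquitin-tagged proteins, were followed in the left ventricle of mice that express an inducible Cre recombinase in cardiomyocytes and in wild-type mice. Members were all genes whose annotated symbol starts with Psma, Psmb, Psmc, Psmd, Psme or Psmg. The array held 49 such genes among 19937 named genes, and 47 of the 49 were bright enough to be tested, among 11384 genes tested in all. A gene was tested where its log2 expression value reached 5 on at least 3 of the 21 arrays. Psma8, a testis subunit, and Psmb11, a thymus subunit, never reached 5, with highest values of 4.15 and 4.30. Psmg3 passed with exactly 3 arrays at 5 and a range of 4.61 to 5.07, and Psmc3ip and Psmg4, with maxima of 5.30 and 5.65, lay just above the limit.

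Total RNA of 21 left ventricles was hybridised to Affymetrix arrays. Tg(αMHC-MerCreMer) mice carry a transgene whose α-myosin heavy chain promoter drives Cre in cardiomyocytes, fused to mutated oestrogen receptor domains so that the ligand tamoxifen moves it into the nucleus. Transgenic mice were given intraperitoneal tamoxifen at 40 mg/kg, or control injections, on 1 day or on 4 days running, with 3 arrays for each of these 4 groups. Wild-type mice were given the 4-day course of tamoxifen (n = 3) or of control injections (n = 6). Hearts were collected 4 days later, and all mice were 9 to 13 weeks old. Of every 3 arrays of a small group 1 was from a male and 2 from females, and the 6 wild-type controls were split evenly by sex. The labels name no floxed allele, transgene copy number, strain background or control vehicle. All 10 cardiomyocyte marker genes were bright enough to be tested. The labels number the samples of a group but do not say that each is a separate animal, so the p values rest on the spread between samples, pooled over all groups.

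The proteasome core particle, called 20S, is a barrel of outer alpha rings, which gate the entry, and inner beta rings, which hold the proteolytic sites. The regulatory particle, called 19S, caps the barrel: its ATPase ring unfolds substrates, and its non-ATPase subunits bind ubiquitin chains and cut them off. In the immunoproteasome, which immune cells make constitutively and other cells make after interferon, Psmb8, Psmb9 and Psmb10 take the place of the catalytic subunits Psmb5, Psmb6 and Psmb7, and Psme1 with Psme2 form the activator PA28. The heart depends on the proteasome to turn over sarcomere and signalling proteins. When proteasome activity is short, the transcription factor NRF1 (gene Nfe2l1), paired with small Maf proteins, is known to raise proteasome genes together.

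The 3 arrays of the transgenic 4-day tamoxifen group stood apart from the rest. They correlated with each other at 0.918 to 0.974, against at least 0.982 within every other group. Their residual variance over all genes was 0.114, against 0.0165 to 0.0238 elsewhere, and over the proteasome genes it was 0.0297, against 0.00628 to 0.0109. Values below are log2 expression on the scale deposited by the authors, and a level is compared only within a gene. Changes are log2 differences from limma with all 21 arrays and sex in the fit, the SE is that of the fit, and adjusted p values are Benjamini-Hochberg values over all 11384 genes, called under 0.05.

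After 4 days of tamoxifen in transgenic mice, most genes of the constitutive proteasome were higher. Of the 31 tested subunit genes of the 20S core and the 19S cap, 27 rose and 0 fell. Their changes ran from 0.04 to 0.73, with a median of 0.32 and all 31 above 0; the median over all genes was 0.014, with 52.5% above 0. Over all 47 members 29 rose and 1, Psme4, fell, where 13.9% of all genes rose and 9.41% fell. By a separate count, the tamoxifen and control arrays did not overlap for 29 members, all higher and not all of them called. Of all genes 16.6% were higher and 11.3% lower without overlap. Of the 5 immunoproteasome genes 1, Psme2, rose, and of the 7 assembly chaperones 1 rose. Whether these groups differed from the core and cap was not tested. The bulk samples cannot show whether cells of a type were fewer or held less RNA each, which cannot be told apart.

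**Figure D1:**
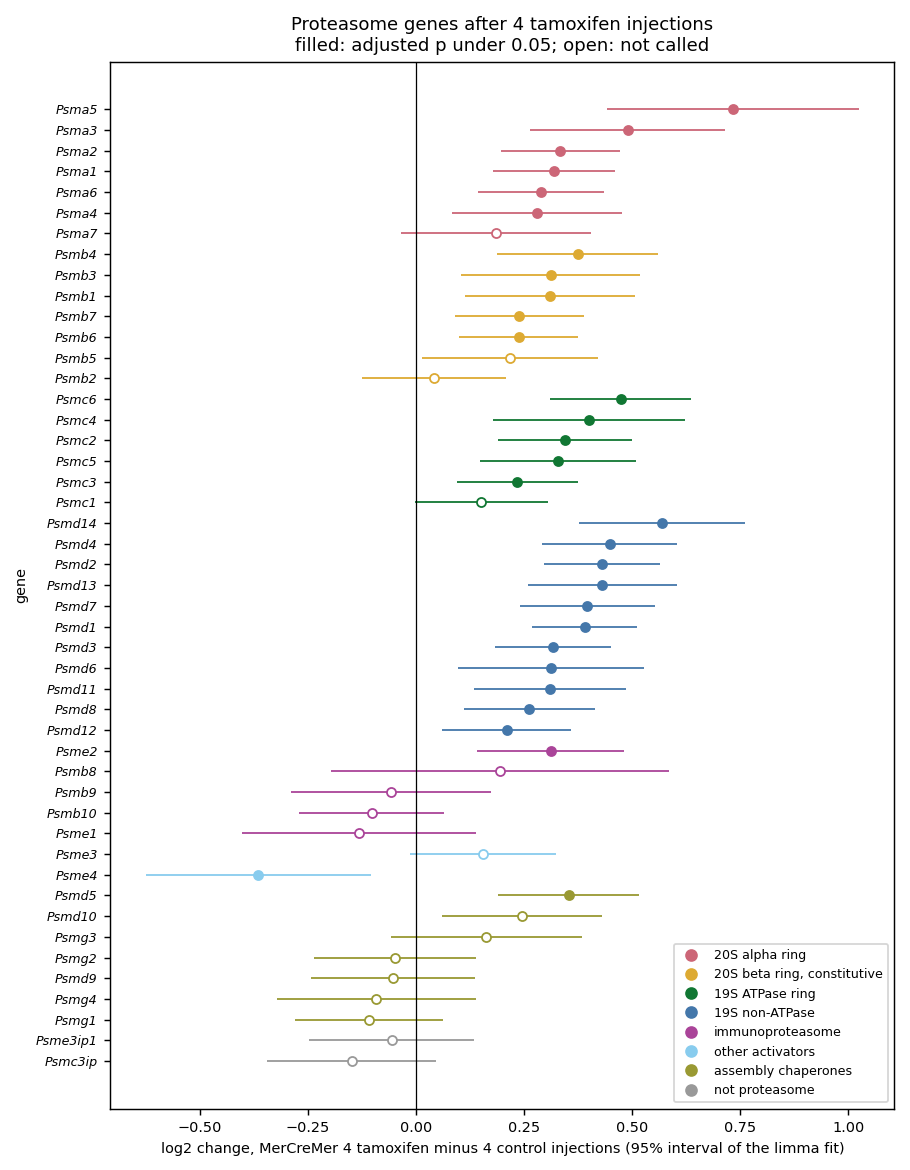
Log2 change of each of the 47 tested genes (rows) between 4 tamoxifen and 4 control injections in transgenic mice, with the 95% interval of the limma fit on the x axis; colours mark the part of the complex, filled points an adjusted p under 0.05 and open points no call. The core and cap genes lie to the right of 0, from 0.04 for Psmb2 to 0.73 for Psma5, and the immunoproteasome and chaperone genes lie on both sides of 0.

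The alpha ring rose in 6 of its 7 tested genes, with a median change of 0.32. Psma5, an alpha subunit, read 7.32, 7.46 and 7.55 on the 3 control arrays and 7.85, 8.05 and 8.61 on the tamoxifen arrays. The groups did not overlap, and replicate 3 was the highest by far. Psma5 had the largest change of any member, 0.73 (SE 0.139, adjusted p = 0.00128), or 1.66-fold. Psma3 read 8.25, 8.54 and 8.41 in controls and 8.72, 8.74 and 9.22 after tamoxifen, again without overlap and with replicate 3 on top. Its change was 0.49 (SE 0.107, adjusted p = 0.00369). Psma2, Psma1, Psma6 and Psma4 rose by less, at 0.33, 0.32, 0.29 and 0.28. Psma7 read 8.66, 8.61 and 8.57 against 8.61, 8.85 and 8.93 and was not called (adjusted p = 0.209); Psma4 and Psma7 were named after their values were seen.

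**Figure D2:**
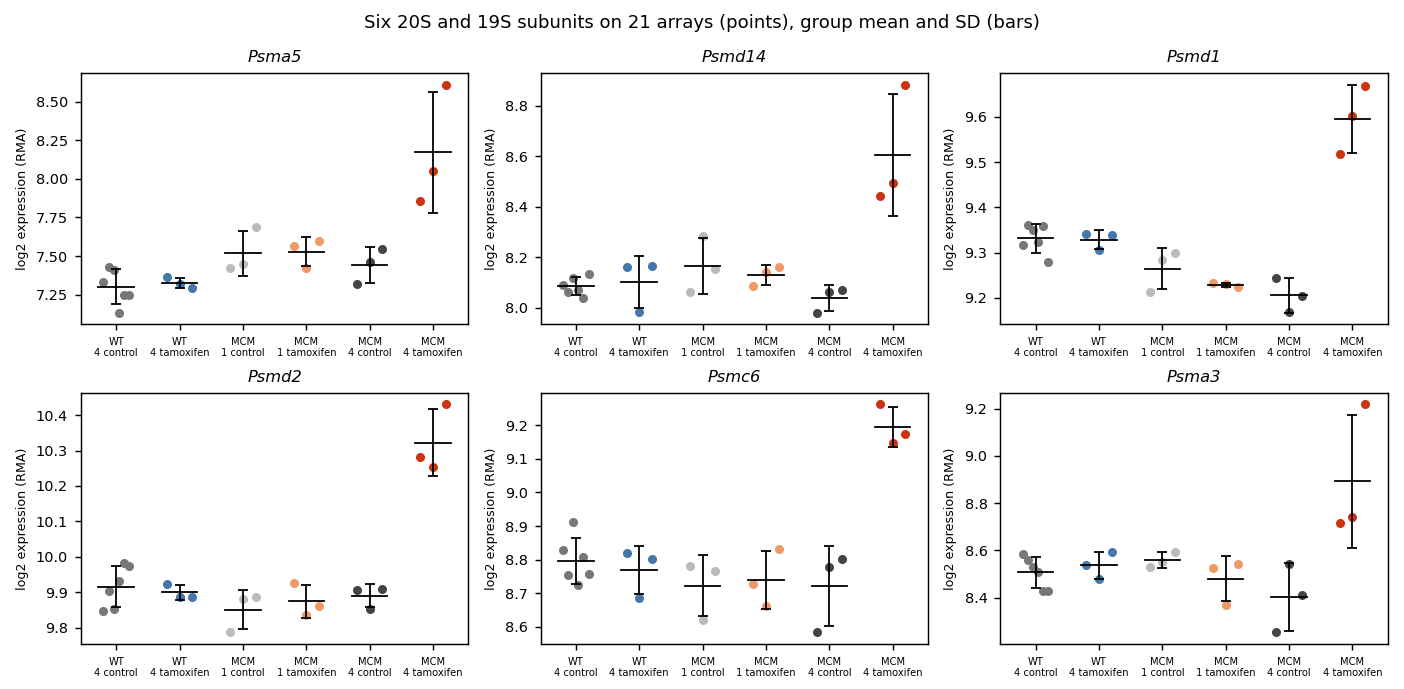
Log2 expression (y axis) of Psma5, Psmd14, Psmd1, Psmd2, Psmc6 and Psma3 on each of the 21 arrays (points) in the 6 groups (x axis; WT, wild type; MCM, transgenic), with the group mean and SD as bars. In each of the 6 genes the 3 transgenic 4-day tamoxifen arrays lie above all 18 others.

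In the 19S cap 5 of 6 ATPase genes and all 11 tested non-ATPase genes rose. The non-ATPase genes had a median change of 0.39. Psmd1, a large scaffold subunit at the base of the cap, read 9.24, 9.17 and 9.20 in controls and 9.52, 9.60 and 9.67 after tamoxifen, a change of 0.39 (SE 0.0577, adjusted p = 0.000151). The second scaffold subunit, Psmd2, read 9.91, 9.85 and 9.91 against 10.28, 10.25 and 10.43, a change of 0.43 (SE 0.0637, adjusted p = 0.000151). For both scaffold genes the spread within a group was small beside the gap between groups. Psmd14, the deubiquitinase that removes the ubiquitin chain before degradation, read 7.98, 8.06 and 8.07 against 8.44, 8.50 and 8.88. Its change of 0.57 (SE 0.0914, adjusted p = 0.000346), or 1.48-fold, was the second largest among the members. Psmd4, a ubiquitin receptor, rose from 7.96, 7.88 and 7.90 to 8.34, 8.43 and 8.31, by 0.45 (SE 0.0745, adjusted p = 0.000423). Among the other lid subunits Psmd13 changed by 0.43, Psmd7 by 0.40, Psmd3 by 0.32 and Psmd11 by 0.31. The Psmd11 call was lost without control replicate 1 (adjusted p = 0.0604) or tamoxifen replicate 3 (0.0501).

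The ATPase ring, the motor of the cap, rose in 5 of 6 genes with a median of 0.34. In all 6 the tamoxifen arrays lay above the controls, as they did for 16.6% of all genes. Psmc6 read 8.58, 8.78 and 8.80 in controls and 9.26, 9.15 and 9.17 after tamoxifen, a change of 0.47 (SE 0.0777, adjusted p = 0.000399). Psmc4 changed by 0.40, Psmc2 by 0.34 and Psmc5 by 0.33. Psmc1 was not called, at 0.15 (adjusted p = 0.143). The call for Psmc4 was lost without tamoxifen replicate 3, where its change was 0.25 (adjusted p = 0.0564), and that for Psmc5 without control replicate 1 (adjusted p = 0.0719).

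The beta ring rose in 5 of 7 genes with a median of 0.24, the smallest among the 4 parts of the constitutive complex. Psmb4, a non-catalytic beta subunit, read 8.82, 8.90 and 8.95 in controls and 9.18, 9.12 and 9.50 after tamoxifen, a change of 0.37 (SE 0.0885, adjusted p = 0.00622). Psmb2 and Psmb5 were not called. Psmb2 read 8.66, 8.72 and 8.75 against 8.61, 8.80 and 8.86, with a difference of 0.04 and an interval from -0.12 to 0.21; it is named after its value was seen.

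The catalytic subunits can be set beside their inducible counterparts pair by pair. Psmb7, which carries the trypsin-like site, read 10.11, 10.15 and 10.25 in controls and 10.33, 10.39 and 10.50 after tamoxifen, without overlap, and rose by 0.24 (SE 0.0709, adjusted p = 0.0223). Its inducible counterpart Psmb10 read 7.86, 7.64 and 7.73 against 7.62, 7.73 and 7.57, with the groups mixed (difference -0.10, adjusted p = 0.369). Psmb6, which carries the caspase-like site, read 9.62, 9.53 and 9.62 against 9.75, 9.78 and 9.94 and rose by 0.24 (SE 0.0656, adjusted p = 0.0153). Its counterpart Psmb9 read 6.96, 6.93 and 7.06 against 6.93, 6.82 and 7.03, a difference of -0.06 (adjusted p = 0.744) over overlapping groups. Psmb5, which carries the chymotrypsin-like site, read 8.71, 8.57 and 8.44 against 8.71, 8.64 and 9.02, a difference of 0.22 (adjusted p = 0.109) with replicate 3 alone above the controls. Its counterpart Psmb8 read 6.22, 6.40 and 6.13 against 6.40, 6.17 and 6.76, a difference of 0.19 with an interval from -0.20 to 0.59, so that a difference of the size seen in Psmb5 could not be told from 0 or from a larger one. The difference between the members of a pair was not tested.

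The Psmb6 call was lost without control replicate 2 (adjusted p = 0.0636) or tamoxifen replicate 3 (0.0594), and the Psmb7 call without control replicate 1 (0.0968), control replicate 2 (0.0627) or tamoxifen replicate 3 (0.0793). Psmb5 was called, at 0.29 (adjusted p = 0.0379), without tamoxifen replicate 2, and fell back to 0.10 without tamoxifen replicate 3. Psmb8 ranged from 0.04 without tamoxifen replicate 3 to 0.35 without tamoxifen replicate 2, and Psmb9 turned to 0.02 without tamoxifen replicate 2.

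**Figure D3:**
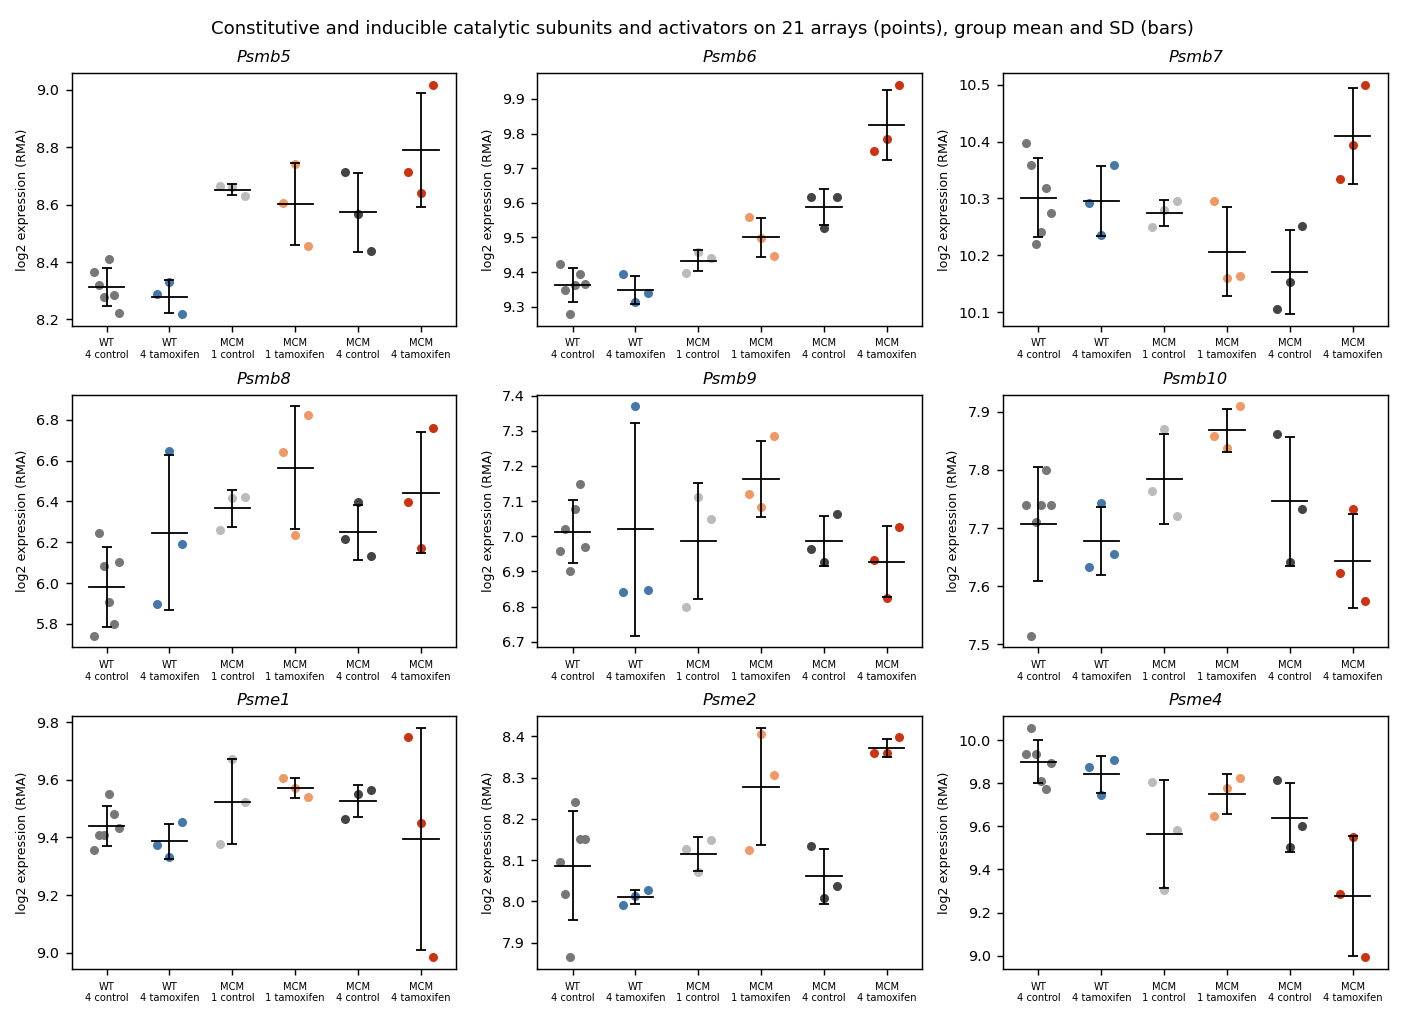
Log2 expression (y axis) of the constitutive catalytic subunits Psmb5, Psmb6 and Psmb7 (top row), their inducible counterparts Psmb8, Psmb9 and Psmb10 (middle row) and the activators Psme1, Psme2 and Psme4 (bottom row) on each of the 21 arrays (points) in the 6 groups (x axis; WT, wild type; MCM, transgenic), with the group mean and SD as bars. Psmb6, Psmb7 and Psme2 lie higher on the transgenic 4-day tamoxifen arrays than on their controls, Psmb9 and Psmb10 do not, and Psme1 spreads from 8.98 to 9.75.

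Of the activators 1, Psme2, was called higher and 1, Psme4, lower, where 13.9% of all genes rose and 9.41% fell. Differences between the activators were not tested. Psme2, the beta subunit of PA28, was the only called immunoproteasome gene: it read 8.13, 8.01 and 8.04 in controls and 8.36, 8.36 and 8.40 after tamoxifen, a change of 0.31 (SE 0.0809, adjusted p = 0.011). The call was lost without control replicate 2 (adjusted p = 0.0505). Its partner Psme1, the alpha subunit of PA28, read 9.46, 9.55 and 9.57 in controls and 9.75, 9.45 and 8.98 after tamoxifen. The tamoxifen arrays fell on both sides of the controls, and the difference of -0.13 (adjusted p = 0.487) became 0.08 without tamoxifen replicate 3 and a called -0.34 (adjusted p = 0.0258) without tamoxifen replicate 1. Psme4, the activator PA200, read 9.82, 9.50 and 9.60 in controls and 9.29, 9.55 and 8.99 after tamoxifen, and was called lower by the fit with a change of -0.36 (SE 0.124, adjusted p = 0.0403). Its groups overlapped, and the call held in 18 of 32 alternative settings; among those that ended it were leaving out any of control replicates 1, 2 and 3 (adjusted p = 0.146, 0.0532 and 0.0962), tamoxifen replicates 1 and 3 (0.093 and 0.199) and wild-type control replicate 4 (0.0501). Psme3, the nuclear activator PA28 gamma, read 8.46, 8.48 and 8.36 against 8.52, 8.46 and 8.78 and was not called (adjusted p = 0.169).

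The assembly chaperones help to build the complex and are not part of the finished particle. Psmd5, which helps to assemble the base of the cap, read 6.90, 6.75 and 6.91 in controls and 7.29, 7.13 and 7.20 after tamoxifen and rose by 0.35 (SE 0.0776, adjusted p = 0.00377). Psmd10, a base chaperone named after its value was seen, read 6.78, 6.84 and 6.83 against 7.15, 6.92 and 7.11, without overlap but not called (adjusted p = 0.0514). The other base chaperone, Psmd9, and the core chaperones Psmg1, Psmg2, Psmg3 and Psmg4 had differences of -0.11 to 0.16 with overlapping groups and no call. The prefix also took in 2 genes that are no proteasome subunits. Psmc3ip, a meiotic recombination factor, and Psme3ip1, a partner of Psme3, were not called, at -0.15 (adjusted p = 0.26) and -0.06; Psmc3ip was called at -0.27 (adjusted p = 0.0457) without control replicate 2.

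Several genes were read by more than 1 probe set, and a probe set can also pick up near-identical copies of a gene, whose share is uncertain. The table used here does not give the genome position of a probe set. The second Psma5 probe set differed by 0.46 between the group means, without overlap, so the size for Psma5 depended on the probe set. The other Psma3 probe sets differed by 0.69 without overlap and by 0.36 with overlap. The second probe sets of Psmd2, Psmb3 and Psmc1 differed by 0.42, 0.32 and 0.32, each without overlap, beside 0.43, 0.31 and 0.15 for the probe sets used. A probe set that names both Psme2 and its copy Psme2b was not used.

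Against all other groups of the study, 22 of the 47 members (46.8%) and 20 of the 31 core and cap genes (64.5%) had their 3 transgenic 4-day tamoxifen arrays above all 18 other arrays, where 7.56% of all genes did. For 0 members did these arrays lie below all others, as they did for 451 genes in all. Array by array, the median shift of the 31 core and cap genes from the mean of the 4-day controls was 0.31, 0.24 and 0.41 in tamoxifen replicates 1, 2 and 3. On these arrays 27, 29 and 31 of the 31 genes lay above all 3 controls, against 44.8%, 33.0% and 39.0% of all genes. The immunoproteasome genes shifted by 0.15, -0.08 and 0.04 on the same arrays.

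Markers of some cell types moved in the same samples, where 13.9% of all genes rose and 9.41% fell. All 13 macrophage marker genes rose, with a median of 1.02, and their summed level lay at 10.94 to 12.29 after tamoxifen against 10.55 to 10.57 in the 4-day controls. Their median shift by array was 0.93, 0.36 and 1.80, so that the array with the largest core and cap shift also had the largest macrophage shift and replicate 2 had the smallest of both. Of 10 cardiomyocyte markers 0 rose and 1 fell, which is near the share of all genes that fell, with a summed level of 15.41 to 15.68 against 15.62 to 15.63. Of 7 endothelial markers 0 rose and 2 fell, and their shift by array was 0.11, -0.33 and -0.61. Of 6 fibroblast markers and 3 tested smooth muscle markers 0 were called, with summed levels of 11.82 to 12.69 against 11.67 to 11.84 and of 9.97 to 11.14 against 9.83 to 10.18. None of 6 T cell and 3 B cell markers was bright enough to be tested: Cd3d, Cd3g, Cd8a, Cd4, Cd2, Cd79a, Cd79b and Ms4a1 were below 5 on every array. The part of these cells in the proteasome changes was not tested.

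**Figure D4:**
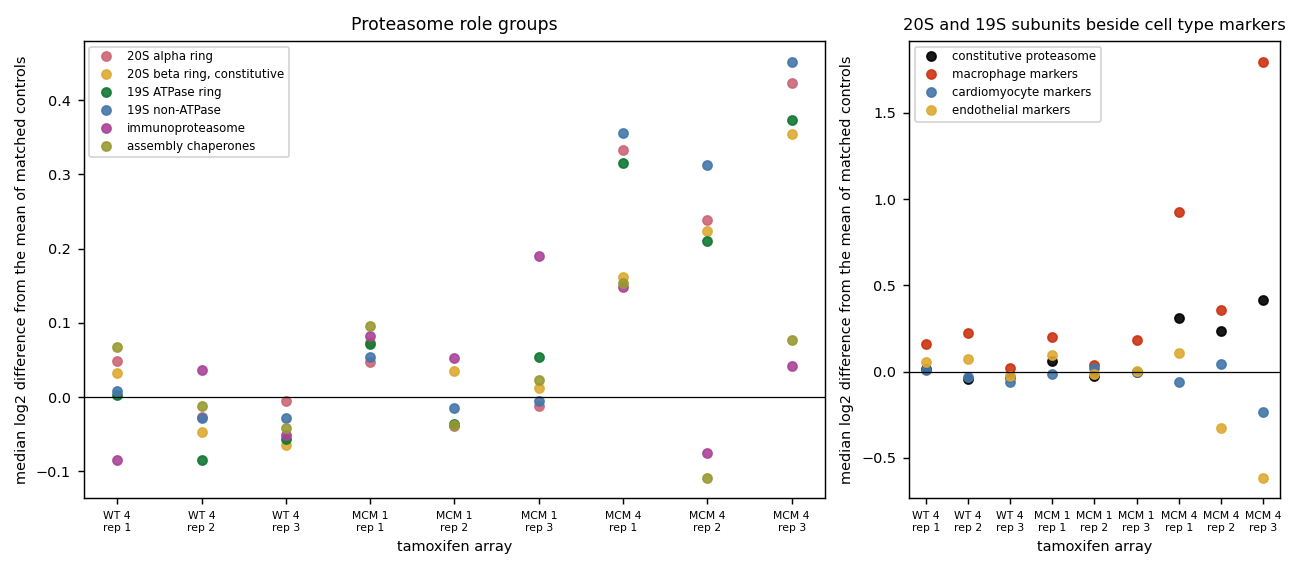
Median log2 difference of a gene list from the mean of its matched control arrays (y axis) for each of the 9 tamoxifen arrays (x axis; WT 4, wild type; MCM 1 and MCM 4, transgenic with 1 or 4 injections); the left panel shows the parts of the complex and the right panel the 31 core and cap genes beside cell type markers. The core and cap median lies at 0.24 to 0.41 on the 3 transgenic 4-day arrays and within -0.04 to 0.06 on the other 6, and the macrophage median reaches 1.80 on MCM 4 replicate 3.

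The fit uses the arrays of all 6 groups to estimate 1 spread per gene. Over all genes the transgenic 4-day tamoxifen group varied more than this shared spread and the other groups less. The p values of its comparisons therefore lean small, and the intervals of the 1-day and wild-type comparisons lean wide. With only the 6 arrays compared, 0 members were called (18 genes in all, 0.158%), and with the spread of each group weighted separately 10 were (955 genes, 8.39%): Psmd1, Psmd2, Psmd14, Psmc6, Psmd4, Psmd7, Psma5, Psmd13, Psma2 and Psma3. Without tamoxifen replicate 3, 19 members were called, all higher, and with female arrays alone 19 were, all higher. The share of all genes called in both settings is not given here, so these counts are not read against it. The median change of the 31 core and cap genes stayed between 0.26 and 0.36 in every setting tried. With each array centred on its median, 23 members rose and 1 fell, and 47.8% of all called genes were higher in place of 59.6%.

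The promoters of the members were searched for the core of the element that NRF1 and NRF2 bind with small Maf proteins (TGACNNNGC), the interferon gamma element GAS (TTCNNNGAA), the interferon element ISRE and the CCAAT box, on both strands of the 250 bases before each start; the closing GAA of TTCNNNGAA can also open an ISRE. RefSeq promoters of assembly GRCm38.p6 were matched for 41 of the 49 genes, with 45 promoters, 27 of them of core and cap genes and 6 of immunoproteasome genes. TGACNNNGC was found in 4 of the 27 core and cap promoters (14.8%) and in 10.2% of the 32851 promoters of the table. The windows that hold it are shown as a description, and whether the element bears on the changes was not tested. Each is 60 bases long, 5′ to 3′ on the gene's strand. The match is in capitals, and lies on the opposite strand in Psmc6 and Psmd12.
Psmb5, chr14:54618008-54618067, minus strand: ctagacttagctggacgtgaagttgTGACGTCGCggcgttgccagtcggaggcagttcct
Psmb6, chr11:70525297-70525356, plus strand: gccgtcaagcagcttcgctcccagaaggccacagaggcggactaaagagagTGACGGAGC
Psmc6, chr14:45329574-45329633, plus strand: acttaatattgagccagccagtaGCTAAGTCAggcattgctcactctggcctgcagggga
Psmd12, chr11:107479278-107479337, plus strand: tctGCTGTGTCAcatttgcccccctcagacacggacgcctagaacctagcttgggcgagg
The matches start 47, 9, 227 and 247 bases before the starts that the promoters of Psmb5, Psmb6, Psmc6 and Psmd12 were taken from. The RefSeq gene record of Psmb6 starts earlier, at position 70525324, so by that record its match lies inside the gene. Of these 4 genes Psmb6, Psmc6 and Psmd12 rose after 4 days of tamoxifen and Psmb5 was not called. Thus 3 of the 22 core and cap genes that rose and had a promoter hold a match (13.6%). This is near the 11.5% of all genes with a promoter, so it is no result about the genes that rose. Outside the core and cap, the chaperone gene Psmd9, which was not called, also holds a match.
Psmd9, chr5:123228130-123228189, plus strand: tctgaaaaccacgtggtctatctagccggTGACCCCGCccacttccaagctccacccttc
Among the 6 immunoproteasome promoters TTCNNNGAA was found in 1, that of Psmb8, against 0 of 27 core and cap promoters and 7.02% of all, and it is shown as the only element of this kind beside an inducible catalytic gene.
Psmb8, chr17:34198073-34198132, plus strand: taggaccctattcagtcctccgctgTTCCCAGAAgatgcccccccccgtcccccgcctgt
The ISRE was found in 2 of the 27 core and cap promoters, in 0 of the 6 immunoproteasome promoters and in 2.98% of all, and CCAAT in 10 of 27, in 1 of 6 and in 33.8%.

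Genes that act with the proteasome were read from a list of 20 partners and regulators, of which 4 rose and 1 fell in the transgenic 4-day comparison. Beside the 13.9% of all genes that rose and 9.41% that fell, this is no result about the list. Usp14, the deubiquitinase that rides on the cap, read 7.64, 7.78 and 7.74 in controls and 8.06, 7.91 and 7.95 after tamoxifen and rose by 0.25 (adjusted p = 0.0105), a call lost without control replicate 1 (adjusted p = 0.0624). The small Maf genes Maff and Mafk, partners of NRF1 and NRF2, were both among the calls. Maff read 4.43, 4.60 and 4.80 against 5.29, 5.06 and 6.13, so that its controls all lay under the brightness limit of 5 and it was tested only because the tamoxifen arrays passed that limit; its call is given no weight. Mafk rose by 0.42 (adjusted p = 0.0113), and its call was lost without control replicate 2 (adjusted p = 0.0518) or tamoxifen replicate 3 (0.0578). Ecpas, an adaptor that binds the 26S complex, read 9.19, 9.07 and 9.10 against 8.87, 9.06 and 8.63 and was called lower at -0.27 (adjusted p = 0.0313). That call was lost on leaving out any of the 3 controls or tamoxifen replicate 1 or 3, with adjusted p from 0.0603 to 0.157.

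The regulators themselves gave no call. Nfe2l1, the gene of NRF1, differed by -0.04 (adjusted p = 0.775) and turned to 0.08 without tamoxifen replicate 3 and to 0.01 without control replicate 2. Nfe2l2, the gene of NRF2, differed by 0.21 (adjusted p = 0.231) and was called at 0.37 (adjusted p = 0.0257) without tamoxifen replicate 1. Pomp, the maturation factor of the core particle, differed by 0.19 (adjusted p = 0.153) and was called at 0.29 (adjusted p = 0.0319) without tamoxifen replicate 2. Psmf1, the inhibitor PI31, differed by -0.05 (adjusted p = 0.649).

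Upstream of the proteasome, 3 of 4 tested genes of ubiquitin activation and of the Vcp segregase rose, where 13.9% of all genes did. Vcp, the ATPase that extracts ubiquitinated proteins, read 10.15, 10.06 and 10.18 in controls and 10.42, 10.52 and 10.51 after tamoxifen and rose by 0.35 (adjusted p = 0.000418). Its cofactor Nploc4 read 8.73, 8.58 and 8.68 against 9.11, 9.14 and 8.94 and rose by 0.40 (adjusted p = 0.000675). Its other cofactor, Ufd1, rose by 0.30 (adjusted p = 0.0127), a call lost without control replicate 1 (0.0628) or tamoxifen replicate 1 (0.0547). Uba6, a ubiquitin-activating enzyme named after its value was seen, differed by 0.13 and was not called.

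The genes that usually accompany the immunoproteasome were mixed. Of 8 genes of the MHC class I pathway, which loads peptides made by the proteasome, 0 were called; the closest, Pdia3, differed by 0.48 (adjusted p = 0.0669) and was called without tamoxifen replicate 1 (adjusted p = 0.0198) or 2 (0.0177). Of 15 interferon genes 5 rose and 1 fell, where 13.9% of all genes rose and 9.41% fell. Irf9, a transcription factor of the interferon response, read at most 6.22 in controls and 7.01, 6.66 and 6.76 after tamoxifen and rose by 0.69 (adjusted p = 0.00134). The interferon-induced gene Ifit1 rose by 0.83 (adjusted p = 0.0336), a call lost without control replicate 2 or 3 (0.137 and 0.0793) or tamoxifen replicate 1 or 3 (0.116 and 0.135). The receptor gene Ifnar2 rose by 0.25 (adjusted p = 0.0215), and its call was lost without control replicate 1 (0.0955) or tamoxifen replicate 1 (0.0699). Ifngr2, the second chain of the interferon gamma receptor, was called lower at -0.35 (adjusted p = 0.0346), a call lost without control replicate 1 or 3 (0.1 and 0.144) or tamoxifen replicate 3 (0.188). Irf1, the activator through which interferon gamma is known to switch on Psmb8 and Psmb9, differed by -0.12 (adjusted p = 0.592).

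After a single tamoxifen injection in transgenic mice the proteasome genes lay close to their controls. Of 47 members 0 were called by limma, where 0.00878% of all genes were. At an unadjusted limma p under 0.05 there was 1 member, Psmg4, at 0.24, beside 3.34% of all genes. Groups did not overlap for 3 members, all higher (Psmb3, Psme3 and Psmg4, named after their values were seen), where 6.88% of all genes were higher and 3.51% lower without overlap. The 31 core and cap genes had a median difference of 0.01, between -0.08 and 0.15, and 19 of them lay above 0; the median over all genes was 0.02. Psma5 read 7.42, 7.45 and 7.69 in the 1-day controls and 7.57, 7.42 and 7.60 after 1 injection, a difference of 0.01 with an interval from -0.28 to 0.30. Psmd1 read 9.21, 9.28 and 9.30 against 9.23, 9.23 and 9.22, a difference of -0.04 with an interval from -0.16 to 0.09. The 5 immunoproteasome genes all lay above 0, with a median of 0.16 and a highest difference of 0.20 for Psmb8, and their groups overlapped. Psme2, the closest to a call among them, read 8.13, 8.07 and 8.15 against 8.12, 8.41 and 8.31, a difference of 0.16 with an interval from -0.01 to 0.33. The 95% intervals of the members had a median half-width of 0.175, so that differences smaller than this could not be told from 0.

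In wild-type mice 4 days of tamoxifen also gave 0 called members by limma, where 0% of all genes were called. An unadjusted limma p under 0.05 was reached by 2 members, 1 higher and 1 lower, and by 2.59% of all genes. Groups did not overlap for 0 members, where they did not for 1.73% of all genes in the higher and 1.69% in the lower direction. The 31 core and cap genes had a median difference of -0.02, between -0.16 and 0.13. Psma5 ran from 7.13 to 7.43 with a median of 7.29 in the 6 controls and read 7.36, 7.32 and 7.30 after tamoxifen, inside the control range. Psmd14 ran from 8.04 to 8.13 in controls and read 8.16, 7.98 and 8.16, on both sides of that range. Psmb8 ran from 5.74 to 6.25 and read 5.90, 6.65 and 6.19, with 1 array above all controls and a difference of 0.25 whose interval ran from -0.09 to 0.59. The 95% intervals of the members had a median half-width of 0.153.

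**Figure D5:**
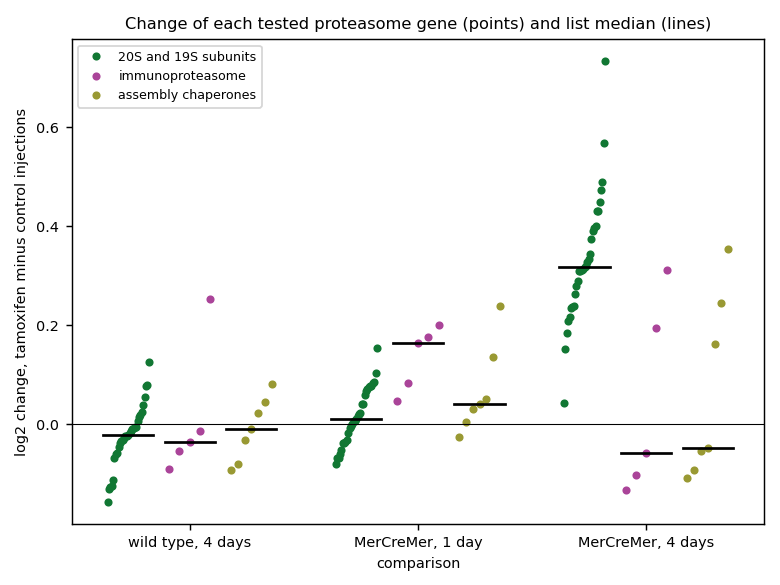
Log2 change of each tested gene between tamoxifen and control injections (y axis; points) in the 3 tamoxifen comparisons (x axis), for the 31 core and cap genes, the 5 immunoproteasome genes and the 7 chaperones, with lines at the list medians. The core and cap median lies at -0.02 in wild type, 0.01 after 1 injection and 0.32 after 4 injections in transgenic mice; the points are genes and not replicates.

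The difference of the 4-day tamoxifen effects between transgenic and wild-type mice was tested in the same fit. It was above 0 for 16 called members and below 0 for 0, where 4.45% of all genes were called above 0 and 3.53% below. Of the 16, 15 were core or cap genes, 7 of them non-ATPase subunits of the cap, and the 31 core and cap genes had a median difference of 0.34. Psmd7 had a difference of 0.51 (adjusted p = 0.00406) and Psmb4 one of 0.53 (adjusted p = 0.0101), which joined a rise in transgenic mice to a wild-type difference of -0.11 and -0.16, not called. Psme2 was the immunoproteasome gene among the 16, at 0.40 (adjusted p = 0.0283). The count fell to 10 without transgenic control replicate 1 and to 9 without wild-type tamoxifen replicate 2. It rose to 26 without transgenic tamoxifen replicate 2, and was 2 with female arrays alone and 9 with the spread of each group weighted separately. The share of all genes called in these settings is not given here, so the counts are no result about the members alone.

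The difference between the effects of 4 days and 1 day in transgenic mice was above 0 for 11 called members and below 0 for 0, where 5.78% of all genes were called, 2.78% above 0 and 3% below. All 11 were core or cap genes: 4 of the alpha ring, 1 of the ATPase ring and 6 other cap subunits, and 0 of the 7 beta subunits. Psma5 differed by 0.72 (adjusted p = 0.0369) and Psmd14 by 0.60 (adjusted p = 0.00996). The 5 immunoproteasome genes had a median difference of -0.18 with 0 calls. The count ranged from 4 to 7 on leaving out any array of the 1-day groups or of the 4-day controls. It was 17 without 4-day tamoxifen replicate 2, 0 with only the arrays compared and 1 with female arrays alone. These counts are not set beside the share of all genes called in the same settings, so they are no result about the members alone. Both differences share their transgenic 4-day arrays with the first comparison.

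The genotype alone, read after 4 control injections, gave 0 called members by limma, where 0.676% of all genes were called (0.545% higher and 0.132% lower in transgenic mice). An unadjusted limma p under 0.05 was reached by 11 members, 7 higher and 4 lower, and by 14.9% of all genes. Groups did not overlap for 8 members higher in transgenic mice (8.49% of all genes) and for 2 lower (4.05%). The 2 with the smallest p were the beta subunits Psmb6 and Psmb2. Psmb6 ran from 9.28 to 9.42 in wild-type controls and read 9.62, 9.53 and 9.62 in transgenic controls, a difference of 0.22 (adjusted p = 0.0774). Psmb5 ran from 8.22 to 8.41 and read 8.71, 8.57 and 8.44, a difference of 0.26 (adjusted p = 0.135). Psmb5 was also the only member for which all 12 transgenic arrays, at 8.44 to 9.02 with a median of 8.65, lay above all 9 wild-type arrays, at 8.22 to 8.41 with a median of 8.29, as 0.773% of all genes did. It was singled out after its values were seen. Psmb7 lay the other way, at 10.11 to 10.25 in transgenic and 10.22 to 10.40 in wild-type controls.

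With the 3 spread-out transgenic 4-day tamoxifen arrays left out of the fit, an alternative added after the data were seen, 4 of 47 members were called higher in transgenic than in wild-type controls and 0 lower. Of all 11384 genes 488 were called higher and 199 lower, together 6.03%. The 4 members were Psmb6 at 0.23 (adjusted p = 0.0137), Psmb2 at 0.25 (adjusted p = 0.0269), Psmb5 at 0.27 (adjusted p = 0.0299) and Psmd3 at 0.19 (adjusted p = 0.0326). The same number of members was called without transgenic 4-day tamoxifen replicate 3 alone, and 1 without replicate 1, counts not set beside the share of all genes. With arrays centred on their median 59.3% of all called genes were higher in place of 80.5%. These transgenic controls are also the controls of the 4-day tamoxifen comparison, and the strain background of the genotypes is not given in the sources used here.

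Over the 21 arrays, members were compared with the median of the 31 core and cap genes by Pearson's r, as a description, since each core and cap gene is itself part of that median. Psma6 followed it most closely, at 0.93, then Psmd2 and Psmc3 at 0.91. Psmb2 at 0.42 and Psmc1 at 0.45 were the lowest of the core and cap genes. The immunoproteasome genes ran from -0.49 for Psmb10 to 0.53 for Psme2, and Psme4 had the lowest value of any member, -0.67. Outside the family the genes most like the median were Acot10 and Ppm1g (r = 0.94 and 0.93), Sdcbp and Pak6 (both 0.93) and Eif3d (0.92). Over the 18 arrays without the transgenic 4-day tamoxifen group these 5 had r from 0.22 to 0.46, so the likeness rested on those 3 arrays. For the members r was not taken without those 3 arrays, so how far it rests on them was not tested.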

How the data were processed

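Total RNA of 21 left ventricles was read on 34760 probe sets of an Affymetrix array. The deposited values are log2 expression from RMA, per the submitters' processing notes; RMA corrects background, quantile normalises and summarises probes, which takes out a shift common to most genes. Array medians ran from 4.57 to 4.72; batches and dates of the arrays are not known here. Of the probe sets 21640 name 1 gene, 1321 several and 11799 none in the platform annotation; for each gene the single-gene probe set with the highest mean was kept. The 49 members were read by 55 probe sets.

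Values were tested with limma 3.58.1 (lmFit, eBayes) in R 4.3.3 on 6 group means and sex (14 residual and 3.98 prior degrees of freedom), two-sided. Data were simulated for the transgenic 4-day comparison over 11384 genes. The fit called 15 of 100 genes changed by 0.3 and 69 of 100 changed by 0.6 (log2). The simulation changed only these genes and gave every group the same spread, unlike the data, where 2654 genes were called. It therefore does not give the share of changes missed here. The members and lists were chosen with earlier results of these data known. Named genes were the immunoproteasome and its counterparts, up to 20 called members per comparison by adjusted p, up to 4 called genes (or else the closest) of each other list, a fixed panel, and the 5 genes most like the core and cap median; others were added after their values were seen, to complete a short count or a part of the complex.

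The replicate numbers were not taken as pairs. Without sex in the fit, same-numbered samples of different groups deviated together (r over 0.1) in 20 of 45 pairs, against 19 of 90 pairs of different numbers. The 20 included all 15 pairs of replicate 1, whose 6 arrays are all from males. With sex in the fit, 0 of those 15 pairs did, and 2 and 3 of the 15 pairs of replicates 2 and 3. Alternatives were no sex term, the arrays compared alone, variance or array weights, a second quantile normalization, centring, other brightness filters (none, or 7), the mean of a gene's probe sets, the replicate block, females alone, and each array left out.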

Additional observations from a re-analysis of the deposited data

Results flagged for a closer look

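The tamoxifen effect of 4 days differed between transgenic and wild-type mice for 16 of 47 proteasome genes by the interaction term of the limma fit, all with the larger change in transgenic mice. Of all genes 4.45% were called above 0 and 3.53% below. On the log2 scale the differences (adjusted p) were 0.45 (0.00336) for Psmd2, 0.44 (0.00404) for Psmd3, 0.51 (0.00406) for Psmd7 and 0.39 (0.00422) for Psmd1. They were 0.49 (0.00542) for Psmd4, 0.50 (0.00673) for Psmc6, 0.56 (0.00866) for Psmd14 and 0.50 (0.00917) for Psmd13. They were 0.53 (0.0101) for Psmb4, 0.46 (0.02) for Psmc5, 0.71 (0.0236) for Psma5 and 0.34 (0.0249) for Psma1. They were 0.37 (0.0262) for Psmc2, 0.40 (0.0283) for Psme2, 0.44 (0.0359) for Psmb1 and 0.31 (0.0468) for Psma6. The count was 9 to 26 on leaving out an array. It was 26 without transgenic tamoxifen replicate 2, 10 without transgenic control replicate 1 and 9 without wild-type tamoxifen replicate 2. These counts are not set beside the share of all genes called in the same settings.

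In transgenic mice the effect of 4 days differed from that of 1 day for 11 of 47 proteasome genes, all with the larger change after 4 days. Of all genes 2.78% were called above 0 and 3% below. The differences (adjusted p) were 0.43 (0.0047) for Psmd1, 0.60 (0.00996) for Psmd14, 0.41 (0.012) for Psmd2 and 0.46 (0.0209) for Psmc6. They were 0.38 (0.0262) for Psma1, 0.35 (0.0276) for Psmd3, 0.41 (0.0296) for Psmd4 and 0.57 (0.0342) for Psma3. They were 0.72 (0.0369) for Psma5, 0.34 (0.0374) for Psma2 and 0.42 (0.0377) for Psmd13. The count was 4 to 7 without any 1 array of the 1-day groups or the 4-day controls, and 17 without 4-day tamoxifen replicate 2. Here too the share of all genes called in the same settings is not given beside the counts.

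In the 6 wild-type controls, replicate 4 lay apart from the others for Psmd7, at 8.65, and replicate 2 lay apart for Psmb10, at 7.51. These were 2 of 29 groups of values looked at, and chance gives about 1 in 20.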

How the results depend on the processing

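The members called in the transgenic 4-day comparison numbered 30, and 0 with the arrays compared alone, 10 with group-variance weights, 19 with females alone and 19 to 31 with an array left out. After 1 injection and in wild type the count was 0 in all 33 alternatives. Between the genotypes it was 0, and 4 with group-variance weights, 5 with array weights, 1 with the brightness filter at 7, 4 without the transgenic 4-day tamoxifen group and 0 to 4 with an array left out. For the difference between the genotypes' tamoxifen effects it was 16, and 9 with group-variance weights, 2 with females alone and 9 to 26 with an array left out. For the difference between 4 days and 1 day it was 11, and 0 with the arrays compared alone, 3 with group-variance weights, 4 with no brightness filter, 1 with females alone and 4 to 17 with an array left out. The causes were not tested, beyond fewer arrays or more genes tested where the setting has them. The share of all genes called also moved with the setting, so these counts are no result about the members alone. With all arrays that share was 23.3% in the transgenic 4-day comparison and 0.676% between the genotypes. It was 7.98% for the difference between the genotypes' tamoxifen effects and 5.78% for that between 4 days and 1 day. With the replicate block the counts were 24, 0, 0 and 0 for the 4 simple comparisons, 7 for the genotypes' difference and 5 for that of the days. Without sex in the fit, same-numbered samples had r from -0.24 to 0.36 (median 0.09), against a median of -0.05 for different numbers. With sex in the fit, r was over 0.1 in 0, 2 and 3 of 15 pairs for replicates 1, 2 and 3. The numbers are therefore not taken as pairs. Changes that turned sign were those of Psmb9 (-0.11 to 0.018 with an array left out), Psme1 (-0.34 to 0.080) and Nfe2l1 (-0.16 to 0.076, and 0.0074 with array weights), none of which was called with all arrays. With 3 arrays in most groups, the number of arrays limits the precision, and members near the brightness limit, Psmg3, Psmg4 and Psmc3ip, are the least certain.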

Other observations

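The number of control injections and the sex of the mice gave no called proteasome gene. Between 4 and 1 control injections in transgenic mice limma called 0 of 47 members, where 0% of all genes were called, and 1 member, Psmb6, had an unadjusted p under 0.05, with a difference of 0.15. Psmb6 read 9.40, 9.46 and 9.44 after 1 control injection and 9.62, 9.53 and 9.62 after 4. Between males and females 0 of 47 members were called, where 0.29% of all genes were, and 1 had an unadjusted p under 0.05. The median of the core and cap genes was 0.04 between the control courses and -0.003 between the sexes.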
